A study of Mus musculus with 5 samples.

Results

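The genes described are 9 mouse genes that encode receptors, decoys, inhibitors and an antagonist of the cytokines IL-1, IL-18 and IL-33. They are Il18r1, Il18rap, Il18bp, Il1r1, Il1r2, Il1rn, Il1rl1, Il1rap and Sigirr, taken by name from a table of 24417 genes with a symbol. All 9 were in the table, and all 9 passed the filter on low counts that left 14164 genes for testing.

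RNA was sequenced from cells of the colon lamina propria, the connective tissue under the gut epithelium. All mice carried a Foxp3DTR-GFP allele together with a Foxp3 loxp-Thy1.1-STOP-loxp-GFP allele, whose STOP signal follows the Thy1.1 reporter. Foxp3 Thy1.1+ reporter-null cells, which use the allele that yields no Foxp3, gave 3 libraries, and Foxp3-DTR-GFP+ Treg cells, which use the other allele, gave 2. Regulatory T (Treg) cells, which restrain immune responses, depend on Foxp3. The labels name no treatment, and the ages of the mice are not known here. The description of reporter-null replicate 1 joins the numbers 1 and 4, and the labels do not name the animals behind a library. The p-values therefore measure only the spread between libraries, which may be technical.

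Totals ran from 19011118 to 22395169 counts in reporter-null libraries and were 17670420 and 22245610 in Treg libraries. Foxp3 ran from 75.7 to 81.2 CPM in reporter-null libraries and was 764 and 769.5 CPM in Treg libraries. CPM, the measure of level used throughout, is a gene's count relative to the TMM-adjusted library size. Thy1, which includes the reporter, ran from 269 to 300.3 CPM in reporter-null libraries and was 18.8 and 21.3 CPM in Treg libraries. Cd3e, a chain of the T cell receptor complex, ran from 1039 to 1260 CPM in reporter-null libraries and was 1035 and 1069.6 CPM in Treg libraries. The T cell markers were not all level. Cd4 ran from 1270 to 1554 CPM in reporter-null libraries and was 682 and 719 CPM in Treg libraries. Of the 5 T cell markers tested, only Cd4 passed the test described below. Cd3g was higher than in Treg libraries in every reporter-null library, Lck was lower in each, and Cd3d and Cd3e overlapped. Reporter-null replicate 2 stood apart in epithelial transcripts. The 6 epithelial markers Epcam, Krt8, Krt18, Krt20, Vil1 and Cdh1 summed to 727 CPM there, to 17.4 and 20.9 CPM in reporter-null replicates 1 and 3, and to 177 and 40.2 CPM in Treg replicates 1 and 2. Plasma cell markers summed to 1767 and 719 CPM in Treg replicates 1 and 2, and to 639, 1273 and 660 CPM in reporter-null replicates 1, 2 and 3. B cell markers summed to 24.1 and 3.60 CPM in Treg replicates 1 and 2, and to 6.55, 27.0 and 7.43 CPM in reporter-null replicates 1, 2 and 3.

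IL-1, IL-18 and IL-33 are related cytokines released from stressed, infected or dying cells of barrier tissues. Each binds a receptor chain of its own (IL-1R1, IL-18R1 or ST2) and then recruits an accessory chain, which is IL-1RAP for IL-1 and IL-33 and IL-18RAP for IL-18. The intracellular domains assemble the adaptor MyD88 with IRAK kinases, which leads to NF-kappaB. Control is exerted by a decoy receptor (IL-1R2), a soluble antagonist (IL-1RA, from Il1rn), a soluble binding protein (IL-18BP) and an inhibitory receptor (SIGIRR). In the gut, IL-1 favours type 17 T cells, IL-18 acts on Th1 cells and Treg cells, and IL-33 acts through ST2 on Th2 cells and tissue Treg cells.

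Both chains of the IL-18 receptor rose in reporter-null cells, and no other gene of the 9 passed the test. The promoters of the pair are shown because both transcripts rose, and that of Il1rl1 because it is the next gene before them and did not pass. Each window holds 250 bases before and 50 bases after an annotated start, from RefSeq on GRCm38.p6. Windows were found for 8 of the 9 genes (not for Sigirr), with 3 starts for Il18r1, 1 for Il18rap and 2 for Il1rl1. The windows printed are the second for Il18r1, at chr1:40465371-40465670 on the plus strand, the only one for Il18rap, at chr1:40515112-40515411 on the plus strand, and the second for Il1rl1, at chr1:40439379-40439678 on the plus strand. Capitals mark matches, on either strand, to 6 short motifs. These were TGTTTAC for forkhead factors such as Foxp3 itself, AGATAA for GATA factors, TGANTCA for the AP-1 family, TTCNNNGAA for STAT proteins, AGGTCA for ROR receptors and TGTGGT for RUNX factors, and no matches overlapped. The second windows were chosen after the matches were seen.
Il18r1: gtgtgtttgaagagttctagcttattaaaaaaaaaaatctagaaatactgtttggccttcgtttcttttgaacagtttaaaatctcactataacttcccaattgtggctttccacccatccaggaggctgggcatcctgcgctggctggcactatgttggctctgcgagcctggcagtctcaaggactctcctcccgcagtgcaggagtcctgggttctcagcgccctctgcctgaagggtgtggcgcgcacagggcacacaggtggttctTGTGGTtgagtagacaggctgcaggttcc
Il18rap: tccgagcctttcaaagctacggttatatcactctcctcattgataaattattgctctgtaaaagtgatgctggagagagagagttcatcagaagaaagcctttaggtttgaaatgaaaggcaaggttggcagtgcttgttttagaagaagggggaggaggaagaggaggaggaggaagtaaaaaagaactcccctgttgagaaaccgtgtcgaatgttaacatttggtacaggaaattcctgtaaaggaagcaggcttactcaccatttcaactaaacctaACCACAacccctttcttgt
Il1rl1: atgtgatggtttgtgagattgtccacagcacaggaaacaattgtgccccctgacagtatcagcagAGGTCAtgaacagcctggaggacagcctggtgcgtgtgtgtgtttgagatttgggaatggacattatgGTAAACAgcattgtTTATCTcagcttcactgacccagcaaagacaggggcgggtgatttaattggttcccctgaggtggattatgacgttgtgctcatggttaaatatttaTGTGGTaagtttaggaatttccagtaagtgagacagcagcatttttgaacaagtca

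The windows of Il18r1 and Il18rap each hold a RUNX match, with its first base at 272 and 282 of the window, both after the annotated start. Of 32851 such windows over all genes 16.8% hold that motif, but the Il18r1 window was picked from 3 with its matches seen. The window of Il18bp, which did not pass, also holds a RUNX match, at 291. The Il1rl1 window holds a forkhead match at 134, a GATA match at 148, a ROR match at 66 and a RUNX match at 245. Forkhead matches occur in 3.65% of all windows, GATA in 11.2% and ROR in 16.3%. AP-1 and STAT matches occur in 7.81% and 8.3% of all windows and in none of the 3 printed. Of the Il18r1 windows not printed, the third holds 2 STAT matches, at 32 and 99, and no RUNX match, and the first holds no match. The first Il1rl1 window, also not printed, holds only a GATA match, at 34. A match is a run of letters and no evidence of binding, and the count table does not say which start was used.

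The comparison asked how these transcripts differ between cells whose Foxp3 locus is active without giving Foxp3 and cells that make Foxp3. Log2 fold changes are given as reporter-null minus Treg with a standard error (SE). Unless another test is named, adjusted p are those of edgeR's quasi-likelihood test, adjusted by Benjamini-Hochberg over all genes tested. Of the 9 genes, 2 (22.2%) were higher and 0 lower at an adjusted p under 0.05, against 8.79% of all 14164 genes tested. The 9 genes were chosen with earlier results of these data known, so shares set against all genes are descriptive only. Among all genes 4.07% were higher and 4.72% lower. At an unadjusted p under 0.05, 3 of the 9 were higher and 3 lower in edgeR. Of all 14164 genes 3199 passed at that unadjusted p, in either direction. DESeq2 called 3 of the 9 higher and 3 lower, against 16.4% of all genes in either direction. With limma-voom it was 2 higher and 1 lower, against 9.16%. The median log2 fold change was 0.45 over the 9 genes and 0.02 over all genes tested. In 8 of the 9 genes the 2 groups did not overlap in any library, which held for 40.8% of all genes. Reporter-null libraries were above in 5 of the 9, against 20.3% of all genes, and below in 3, against 20.5%.

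Il18r1 encodes the chain of the IL-18 receptor that binds the cytokine. It stood at 125, 154 and 142 CPM in reporter-null replicates 1, 2 and 3, and at 57.9 and 44.5 CPM in Treg replicates 1 and 2. Every reporter-null library lay well above the highest Treg library. The means were 141 ± 14.6 CPM in reporter-null cells (SD, n = 3) and 51.2 ± 9.47 CPM in Treg cells (SD, n = 2). The log2 fold change was 1.46 (SE 0.164, adjusted p = 0.00342), a 2.74-fold higher level. In bulk RNA a larger share of cells that carry a transcript and more RNA per cell cannot be told apart, here and for the genes that follow.

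Il18rap encodes the accessory chain, without which bound IL-18 does not signal. It stood at 91.1, 99.5 and 106 CPM in reporter-null replicates 1, 2 and 3, and at 39.4 and 35.7 CPM in Treg replicates 1 and 2. As for Il18r1, the groups were far apart and the libraries within a group close together. The means were 98.9 ± 7.50 CPM in reporter-null cells (SD, n = 3) and 37.6 ± 2.66 CPM in Treg cells (SD, n = 2), 2.63-fold or 1.40 on the log2 scale (SE 0.127, adjusted p = 0.00152). Both calls held with any single library left out, at adjusted p of 0.000193 to 0.0424 for Il18r1 and 0.000108 to 0.0309 for Il18rap.

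The proportion of the chains was taken within each library. The ratio of Il18rap to Il18r1 counts was 0.727, 0.645 and 0.745 in reporter-null replicates 1, 2 and 3, and 0.681 and 0.801 in Treg replicates 1 and 2. The ranges overlapped. The log2 ratio differed by -0.07 between the groups (exact two-sided permutation p = 0.6, 0.6 after Benjamini-Hochberg adjustment over the 8 pairs tested). With 3 against 2 libraries the smallest p that this test can give is 0.1, so no ratio below could pass 0.05.

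Il18bp, the soluble protein that captures IL-18, was weakly expressed. It had 66, 52 and 66 counts in reporter-null replicates 1, 2 and 3, and 39 and 31 counts in Treg replicates 1 and 2. That is 3.0003 ± 0.543 CPM in reporter-null cells (SD, n = 3) and 1.77 ± 0.483 CPM in Treg cells (SD, n = 2). All reporter-null libraries were above both Treg libraries, but the log2 fold change of 0.76 did not pass (SE 0.454, adjusted p = 0.395). The Il18bp exons overlap those of Numa1 on the other strand over 80 bases in GENCODE M21. Since the strand setting of the counting is not known, reads of the overlap cannot be told apart. The log2 ratio of Il18r1 to Il18bp was 5.51 ± 0.403 in reporter-null cells (SD, n = 3) and 4.79 ± 0.109 in Treg cells (SD, n = 2) (exact permutation p = 0.2, adjusted p = 0.267).

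**Figure D1:**
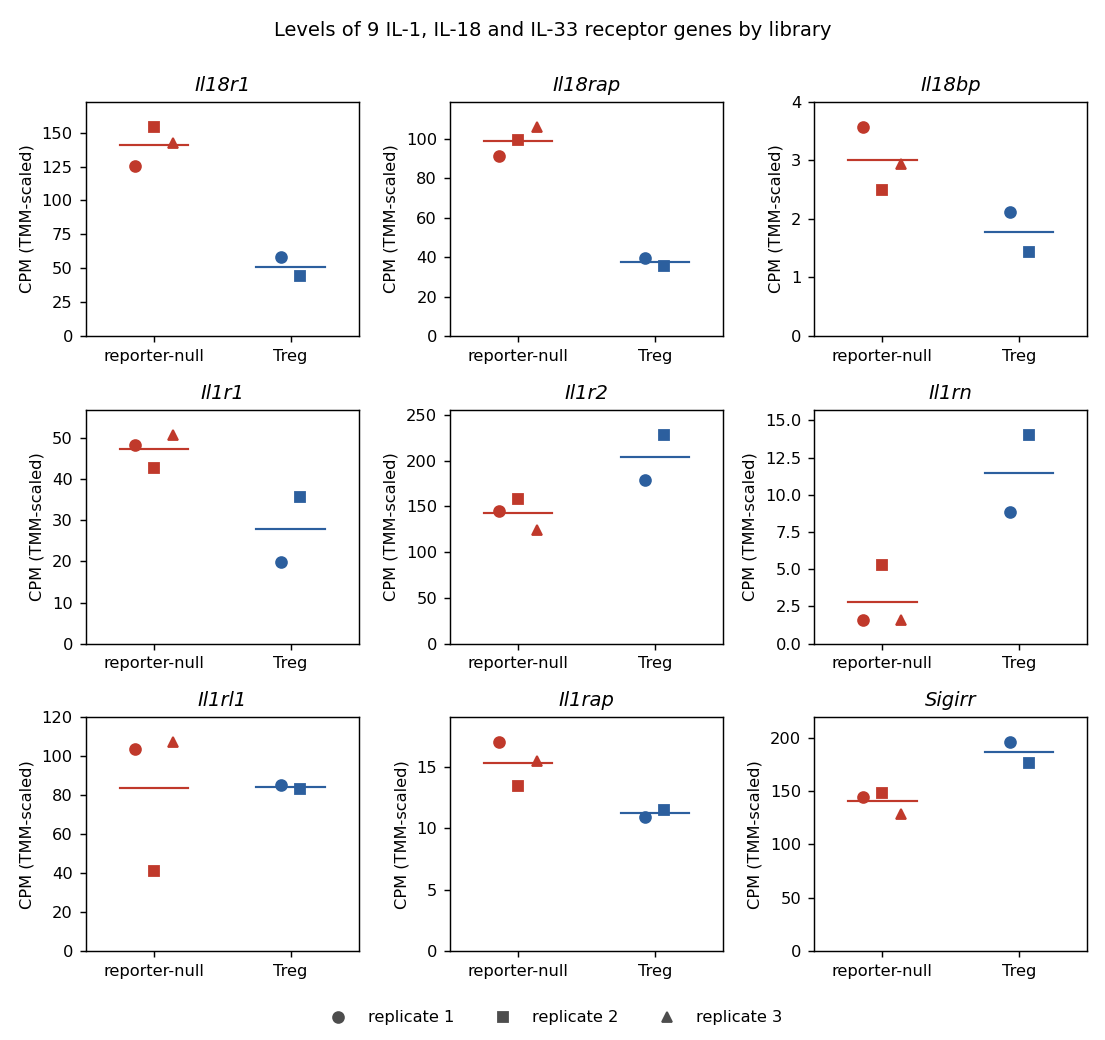
TMM-scaled CPM (vertical axes, linear, starting at 0, each with its own range) of the 9 genes in the 3 reporter-null and 2 Treg libraries; each symbol is a library and each line a group mean. Il18r1 and Il18rap show the clearest separation, and in Il1rl1 and Il1rn reporter-null replicate 2 (square) lies apart from the other reporter-null libraries.

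For IL-1 the signalling and decoy receptors lay in opposite directions, although neither passed the test by itself. Il1r1, the signalling receptor, stood at 48.2, 42.8 and 50.8 CPM in reporter-null replicates 1, 2 and 3, and at 19.9 and 35.6 CPM in Treg replicates 1 and 2. The Treg libraries differed from each other more than the reporter-null libraries did, and the groups did not overlap. The means were 47.3 ± 4.09 CPM in reporter-null cells (SD, n = 3) and 27.8 ± 11.1 CPM in Treg cells (SD, n = 2), and the log2 fold change was 0.77 (SE 0.250, adjusted p = 0.126). It was 0.41 (adjusted p = 0.353) without Treg replicate 1, and passed at 1.25 without Treg replicate 2 (adjusted p = 0.0447).

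Il1r2 encodes a receptor that binds IL-1 but lacks the signalling domain. It stood at 145, 158 and 125 CPM in reporter-null replicates 1, 2 and 3, and at 178 and 229 CPM in Treg replicates 1 and 2. Both Treg libraries were above all reporter-null libraries. The means were 142 ± 16.7 CPM in reporter-null cells (SD, n = 3) and 203 ± 35.4 CPM in Treg cells (SD, n = 2), which is -0.51 on the log2 scale (SE 0.156, adjusted p = 0.102). It passed without reporter-null replicate 2 (-0.60, adjusted p = 0.0253) and shrank to -0.32 without Treg replicate 2 (adjusted p = 0.450). Neutrophils are another source of this transcript. The summed level of S100a8, S100a9, Csf3r, Cxcr2 and Ly6g was 0.0889 to 0.863 CPM in reporter-null libraries. In Treg libraries it was 0.739 to 0.760 CPM. The part of other cells in the Il1r2 result was not tested.

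The ratio of Il1r1 to Il1r2 counts was 0.333, 0.271 and 0.408 in reporter-null replicates 1, 2 and 3, and 0.112 and 0.156 in Treg replicates 1 and 2. The lowest reporter-null ratio was above the highest Treg ratio. The log2 ratio was -1.59 ± 0.293 in reporter-null cells (SD, n = 3) and -2.92 ± 0.339 in Treg cells (SD, n = 2), a difference of 1.33. Its exact permutation p was 0.1, the smallest possible, and 0.267 after adjustment over the 8 pairs.

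Il1rn, the antagonist that occupies IL-1R1 without signalling, was low throughout and lowest in reporter-null cells. It had 29, 110 and 35 counts in reporter-null replicates 1, 2 and 3, and 163 and 304 counts in Treg replicates 1 and 2. These are 1.57, 5.27 and 1.56 CPM in the reporter-null libraries, and 8.84 and 14.05 CPM in the Treg libraries. Reporter-null replicate 2 was the highest of its group and still below both Treg libraries. The log2 fold change of -2.03 did not pass (SE 0.611, adjusted p = 0.109), whereas with reporter-null replicate 2 left out it did (-2.88, adjusted p = 0.000288). Macrophages also make this antagonist. The 7 macrophage and monocyte markers summed to 18.1, 75.1 and 21.4 CPM in reporter-null replicates 1, 2 and 3, and to 46.0 and 12.8 CPM in Treg replicates 1 and 2. Among reporter-null libraries replicate 2 had both the highest marker sum and the highest Il1rn level, and of the Treg libraries the one with the lower marker sum had the higher Il1rn level. The part of other cells in the Il1rn result was not tested. The log2 ratio of Il1r1 to Il1rn was 4.27 ± 1.10 in reporter-null cells (SD, n = 3) and 1.25 ± 0.123 in Treg cells (SD, n = 2) (exact permutation p = 0.2, adjusted p = 0.267).

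Il1rl1 encodes ST2, the IL-33 receptor, of which a soluble form is made from the same gene, and counts per gene do not separate the forms. It stood at 104, 41.0 and 107 CPM in reporter-null replicates 1, 2 and 3, and at 85.3 and 83.1 CPM in Treg replicates 1 and 2. It was the only one of the 9 genes whose groups overlapped. The Treg libraries lay between reporter-null replicate 2 and the other 2 reporter-null libraries. The means were 84.0 ± 37.3 CPM in reporter-null cells (SD, n = 3) and 84.2 ± 1.52 CPM in Treg cells (SD, n = 2), so that the log2 fold change was -0.00353 (SE 0.449, adjusted p = 0.998). The SE leaves room for a difference of either sign, and the absence of a call does not show equal levels. Without reporter-null replicate 2 it was 0.32 (adjusted p = 0.152), and with Treg replicate 1 left out 0.016 (adjusted p = 0.994).

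Mast cells, basophils, eosinophils and group 2 innate lymphoid cells also carry ST2. Of the mast cell and basophil markers, Fcer1a, Ms4a2, Mcpt1, Mcpt8 and Cpa3 were each at most 1.14 CPM in any library, and Fcer1a, Ms4a2 and Mcpt1 were at 0 in all but reporter-null replicate 2. Kit, the remaining marker of that list, stood at 14.7 to 37.2 CPM in reporter-null libraries and at 6.51 and 7.67 CPM in Treg libraries. Epx, of eosinophils, was at 0 in all 5 libraries, and Siglecf and Prg2 were each at most 0.434 CPM. Ccr3, the remaining eosinophil marker, was at most 0.384 CPM in reporter-null libraries and stood at 33.8 and 23.6 CPM in Treg libraries. The 5 markers listed for group 2 innate lymphoid cells, which include Rora of T cells, summed to 863 to 955 CPM in reporter-null libraries and to 594 and 636 CPM in Treg libraries. Among these Il17rb stood at 126, 43.6 and 182 CPM in reporter-null replicates 1, 2 and 3, and at 10.04 and 14.1 CPM in Treg replicates 1 and 2, and did not pass (adjusted p = 0.0973). Hpgds, of the same list, was lower in reporter-null cells (-1.61 on the log2 scale, adjusted p = 0.0197). Of the 5, 4 were lowest in reporter-null replicate 2 among the reporter-null libraries, as Il1rl1 was, and 1, Rora, was highest there. The part of such cells in the Il1rl1 result was not tested.

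Of 10 genes known beside ST2 in Th2 and Treg cells, 6 were lowest in reporter-null replicate 2 among the reporter-null libraries, as Il1rl1 was, and 4 (Batf, Tigit, Pparg and Rora) were highest there. In lists used below, 6 of 10 type 17 genes and 6 of 10 ligand processing genes were also lowest there. It was 6 of 21 for the MyD88 pathway and 0 of 9 for the Th1 list. The share over all genes was not counted. Among the 6 of the ST2 list were Gata3 and Klrg1. Gata3, a regulator that drives Il1rl1 in Th2 cells, stood at 527, 265 and 534 CPM in reporter-null replicates 1, 2 and 3, and at 337 and 408 CPM in Treg replicates 1 and 2. Klrg1, an inhibitory receptor of ST2+ tissue Treg cells, stood at 77.0, 12.5 and 71.9 CPM in reporter-null replicates 1, 2 and 3, and at 389 and 411 CPM in Treg replicates 1 and 2. Unlike Il1rl1, Klrg1 was well below Treg cells in every reporter-null library. Its log2 fold change of -2.90 did not pass (SE 0.860, adjusted p = 0.165), but did without that library (-2.44, adjusted p = 1.22e-06). The high epithelial sum of the same library stands beside these values, and its part in them was not tested.

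Il1rap is the accessory chain shared by IL-1R1 and ST2. It stood at 16.998, 13.5 and 15.5 CPM in reporter-null replicates 1, 2 and 3, and at 10.96 and 11.5 CPM in Treg replicates 1 and 2. The groups did not overlap, and the log2 fold change of 0.45 did not pass (SE 0.191, adjusted p = 0.226). Over 552 bases its exons overlap those of Gm20319 on the other strand in GENCODE M21, where the same limit on strand holds. The log2 ratio of Il1r1 to Il1rap was 1.62 ± 0.110 in reporter-null cells (SD, n = 3) and 1.24 ± 0.546 in Treg cells (SD, n = 2) (exact permutation p = 0.2, adjusted p = 0.267). That of Il1rl1 to Il1rap was 2.33 ± 0.639 in reporter-null cells (SD, n = 3) and 2.90 ± 0.0713 in Treg cells (SD, n = 2) (exact permutation p = 0.3, adjusted p = 0.343).

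Sigirr, the inhibitory member of the family, is also made by epithelial cells. It stood at 144, 148 and 129 CPM in reporter-null replicates 1, 2 and 3, and at 196 and 177 CPM in Treg replicates 1 and 2. Both Treg libraries were above all reporter-null libraries, by a log2 fold change of -0.41 that did not pass (SE 0.118, adjusted p = 0.0901). In each group the library with the highest epithelial sum, reporter-null replicate 2 and Treg replicate 1, also had the highest Sigirr level. Other pairs went the other way. Reporter-null replicate 1 had a lower epithelial sum than replicate 3 (17.4 against 20.9 CPM) but more Sigirr. Treg replicate 2 had a lower sum than reporter-null replicate 2 (40.2 against 727 CPM) but more Sigirr. The part of epithelial RNA in the Sigirr result was not tested.

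Receptors of different cytokines were also set against each other within a library. The log2 ratio of Il18r1 to Il1rl1 was 0.27, 1.91 and 0.41 in reporter-null replicates 1, 2 and 3, and -0.56 and -0.90 in Treg replicates 1 and 2. Il18r1 counts thus exceeded Il1rl1 counts in every reporter-null library and were fewer in both Treg libraries. The difference in this log2 ratio was 1.59 (exact permutation p = 0.1, adjusted p = 0.267). Counts of the other IL-18 receptor chain, Il18rap, exceeded those of Il1rl1 only in reporter-null replicate 2 (2075 against 855). They were 1682 against 1917 in reporter-null replicate 1 and 2384 against 2412 in replicate 3. The log2 ratio of Il1r1 to Il1rl1 was -0.71 ± 0.666 in reporter-null cells (SD, n = 3) and -1.66 ± 0.617 in Treg cells (SD, n = 2) (exact permutation p = 0.2, adjusted p = 0.267).

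**Figure D2:**
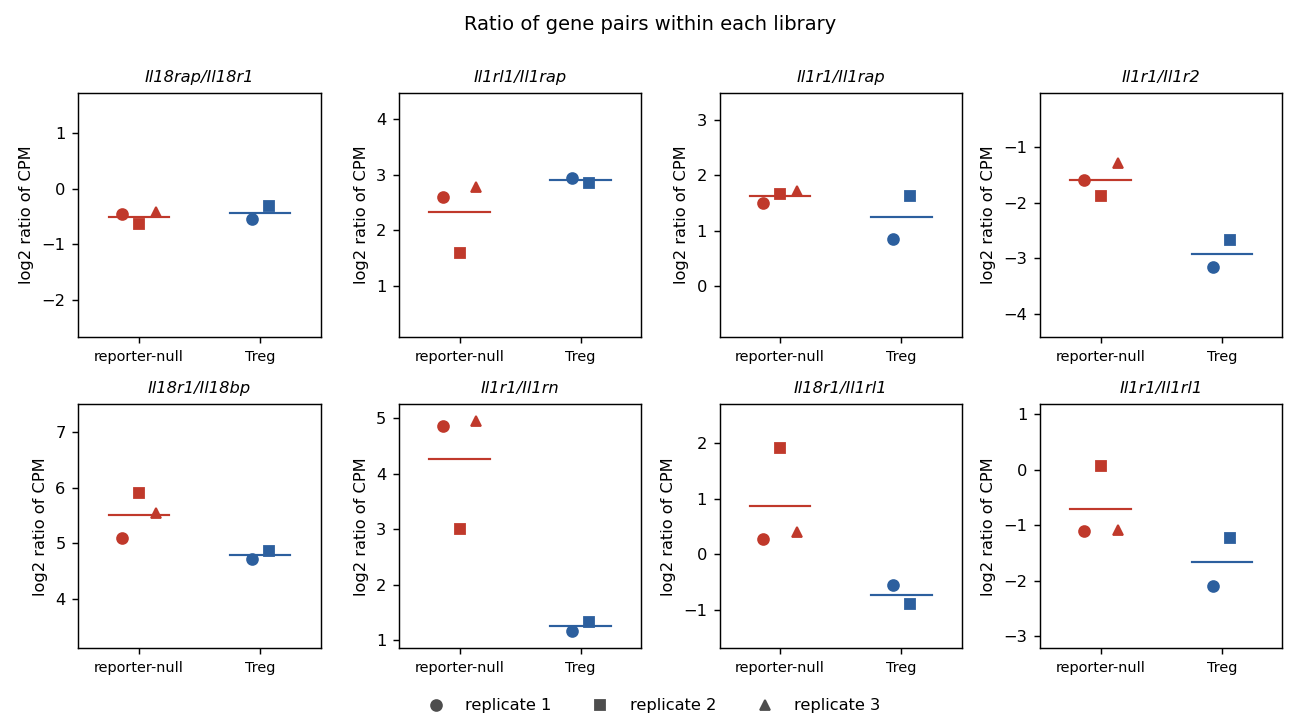
Log2 ratio of the CPM of 8 gene pairs (vertical axes, all of equal span) in the 3 reporter-null and 2 Treg libraries; symbols are libraries and lines are group means. The ratio of Il1r1 to Il1r2 was higher in all reporter-null libraries than in either Treg library, and the ratio of Il18rap to Il18r1 overlapped.

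Levels of different genes were set side by side as CPM per kilobase of annotated exon in GENCODE M21, which may not be the annotation behind the counts. In reporter-null cells the order was Il1r2 at 74.7 ± 8.76, Sigirr at 46.1 ± 3.42, Il18r1 at 29.2 ± 3.03, Il18rap at 14.6 ± 1.11 and Il1rl1 at 12.2 ± 5.41 CPM per kilobase (SD, n = 3). In Treg cells it was Il1r2 at 107 ± 18.6, Sigirr at 61.2 ± 4.43, Il1rl1 at 12.2 ± 0.221, Il18r1 at 10.6 ± 1.97 and Il18rap at 5.56 ± 0.394 CPM per kilobase (SD, n = 2). The decoy and the inhibitory receptor thus headed both orders. In reporter-null libraries Il1rl1 overlapped with its neighbours Il18rap and Il1r1. In Treg libraries Il18rap overlapped with Il1r1, while Il1rl1, at 12.4 and 12.1 CPM per kilobase in replicates 1 and 2, lay just above Il18r1, at 12.03 and 9.25. Il1r1 followed at 7.43 ± 0.643 CPM per kilobase in reporter-null cells (SD, n = 3) and 4.36 ± 1.75 in Treg cells (SD, n = 2). Il1rap, Il18bp and Il1rn were last in both groups, with means of 0.506 to 1.35 CPM per kilobase in reporter-null cells and 0.586 to 2.07 in Treg cells.

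The fold changes varied along the chromosome. Il1r2, Il1r1, Il1rl2, Il1rl1, Il18r1 and Il18rap follow each other in this order as 6 neighbouring coding genes of chromosome 1 in RefSeq. Their log2 fold changes were -0.51, 0.77, 1.90, -0.00353, 1.46 and 1.40 in that order, so the 2 called genes were neighbours at one end. Il1rl2, the receptor for the IL-36 cytokines, had 108, 108 and 115 counts in reporter-null replicates 1, 2 and 3, and 5 and 56 counts in Treg replicates 1 and 2. It did not pass (SE 0.862, adjusted p = 0.265), and its fold change of 1.90 moved with the Treg library left out. It was 4.28 without Treg replicate 2, where it passed (adjusted p = 0.0357), and 1.05 without Treg replicate 1 (adjusted p = 0.356). Of 7 genes listed from around the cluster 5 were tested, and 0 passed in edgeR, with 1 at an unadjusted p under 0.05, 1 in DESeq2 and 0 in limma-voom. The gene at that unadjusted p was Map4k4, the coding neighbour before Il1r2, which differed by 0.45 (SE 0.141, adjusted p = 0.115). Over all 14164 genes 8.79% passed in edgeR, 16.4% in DESeq2 and 9.16% in limma-voom, and 3199 genes at the unadjusted p.

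**Figure D3:**
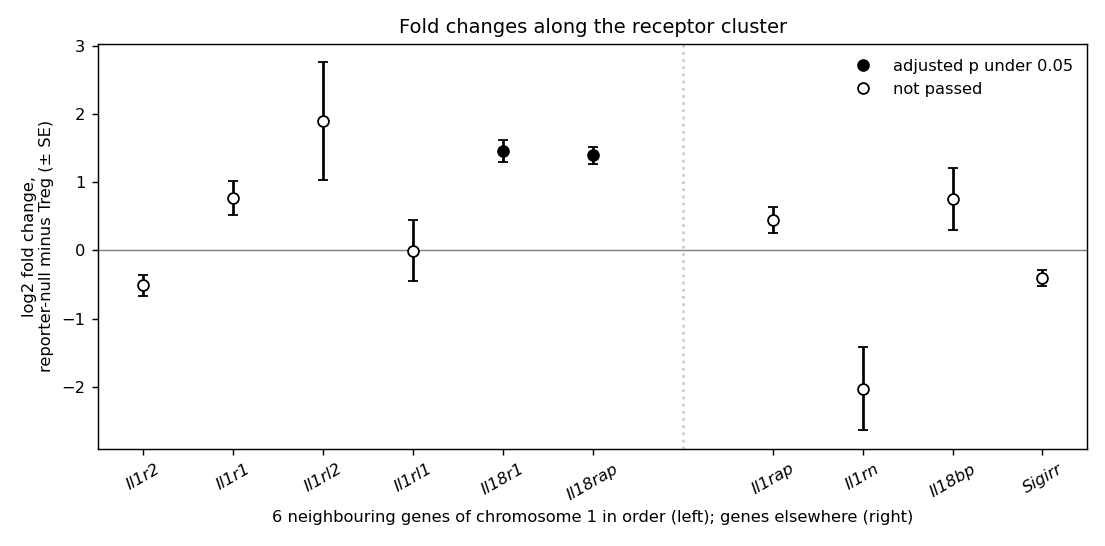
Log2 fold change, reporter-null minus Treg, with SE (vertical axis) for the 6 neighbouring genes of chromosome 1 in order and for the 4 genes elsewhere; filled symbols have an adjusted p under 0.05. Il18r1 and Il18rap are the filled symbols, while Il1rl1, the next gene before them, lies at 0.

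Genes with a pattern most like the called pair were found by the root mean square difference of centred log2 CPM over the 5 libraries, among 9094 genes. For Il18r1 these were Serpinb1a, a protease inhibitor, at 0.0663, and Bik, a cell death gene of the BCL2 family, at 0.115. For Il18rap they were Mfsd6 at 0.0405 and Bik at 0.0638. The median gene differed from Il18r1 by 0.748 and from Il18rap by 0.703. As the named genes were picked for likeness over the same 5 libraries, similar orders, fold changes and calls come with that choice. Serpinb1a stood at 91.4, 116 and 108 CPM in reporter-null replicates 1, 2 and 3, and at 46.5 and 36.9 CPM in Treg replicates 1 and 2, so its order of libraries matched that of Il18r1. Its log2 fold change was 1.33 (adjusted p = 0.00461), and the adjusted p was 0.0532 without Treg replicate 2. That of Mfsd6 was 1.32 (adjusted p = 0.0017). That of Bik was 1.504 (adjusted p = 0.00926), with adjusted p of 0.0661, 0.0747 and 0.0717 without Treg replicate 1, Treg replicate 2 and reporter-null replicate 1.

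Ligands of these receptors were scarce in the sorted cells. Of the 9 IL-1 family ligand genes that were listed and found, 3 were tested and 0 passed in edgeR, DESeq2 or limma-voom, with 1 (Il18) at an unadjusted p under 0.05, and 3 had no count in any library. Il18 had 2, 37 and 17 counts in reporter-null replicates 1, 2 and 3, and 57 and 141 counts in Treg replicates 1 and 2. It did not pass (log2 fold change -2.44, SE 0.978, adjusted p = 0.21), whereas with reporter-null replicate 2 left out it did (-3.42, adjusted p = 0.0143). Il1b, a myeloid product, had 5, 210 and 19 counts in reporter-null replicates 1, 2 and 3, and 202 and 9 counts in Treg replicates 1 and 2. Its high libraries were those with the higher sums of macrophage, epithelial, B cell, plasma cell and fibroblast markers. The part of such cells in the Il1b counts was not tested. Il33 had 8, 14 and 6 counts in reporter-null replicates 1, 2 and 3, and 0 and 1 counts in Treg replicates 1 and 2, and was not tested. Of 10 genes of ligand processing, such as caspase 1 and the inflammasome sensors, all were tested and 0 passed in edgeR or limma-voom, with 3 in DESeq2. At an unadjusted p under 0.05 there were 4, with Casp1 and Nlrp3 higher and Casp8 and Pycard lower. Of all 14164 genes 3199 passed at that unadjusted p, in either direction. Over all genes 8.79% passed in edgeR, 16.4% in DESeq2 and 9.16% in limma-voom.

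Among genes of the MyD88 pathway 1 of the 4 IRAK genes was higher and 1 lower. Of 21 listed and tested, 2 were higher and 1 lower, with a median log2 fold change of 0.20, against 4.07% higher and 4.72% lower and a median of 0.02 over all genes. At an unadjusted p under 0.05, 7 were higher and 2 lower, where 3199 of all 14164 genes passed in either direction. DESeq2 called 5 higher and 1 lower, against 16.4% of all genes in either direction. With limma-voom it was 2 and 1, against 9.16%. Irak3 encodes IRAK-M, which damps signalling from these receptors. It stood at 61.9, 67.8 and 44.2 CPM in reporter-null replicates 1, 2 and 3, and at 17.8 and 13.6 CPM in Treg replicates 1 and 2. The groups were well apart, and the log2 fold change was 1.88 (SE 0.231, adjusted p = 0.00464), although the adjusted p was 0.0604 without Treg replicate 2.

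Irak2, a kinase that sustains the signal, stood at 75.5, 71.3 and 67.5 CPM in reporter-null replicates 1, 2 and 3, and at 143 and 169.8 CPM in Treg replicates 1 and 2. Its log2 fold change was -1.13 (SE 0.123, adjusted p = 0.0029), and the call held with any single library left out. Nfkbia, the inhibitor of NF-kappaB that is itself an NF-kappaB target, stood at 3263, 3230 and 2859 CPM in reporter-null replicates 1, 2 and 3, and at 1894 and 1925 CPM in Treg replicates 1 and 2. Its log2 fold change was 0.71 (SE 0.139, adjusted p = 0.0265), with adjusted p of 0.208, 0.164 and 0.117 without Treg replicate 1, Treg replicate 2 and reporter-null replicate 1. The other 18 genes did not pass. Among these the adaptor Myd88 differed by 0.51 (SE 0.150, adjusted p = 0.0958), and by 0.57 without reporter-null replicate 2, where it passed (adjusted p = 0.0236).

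**Figure D4:**
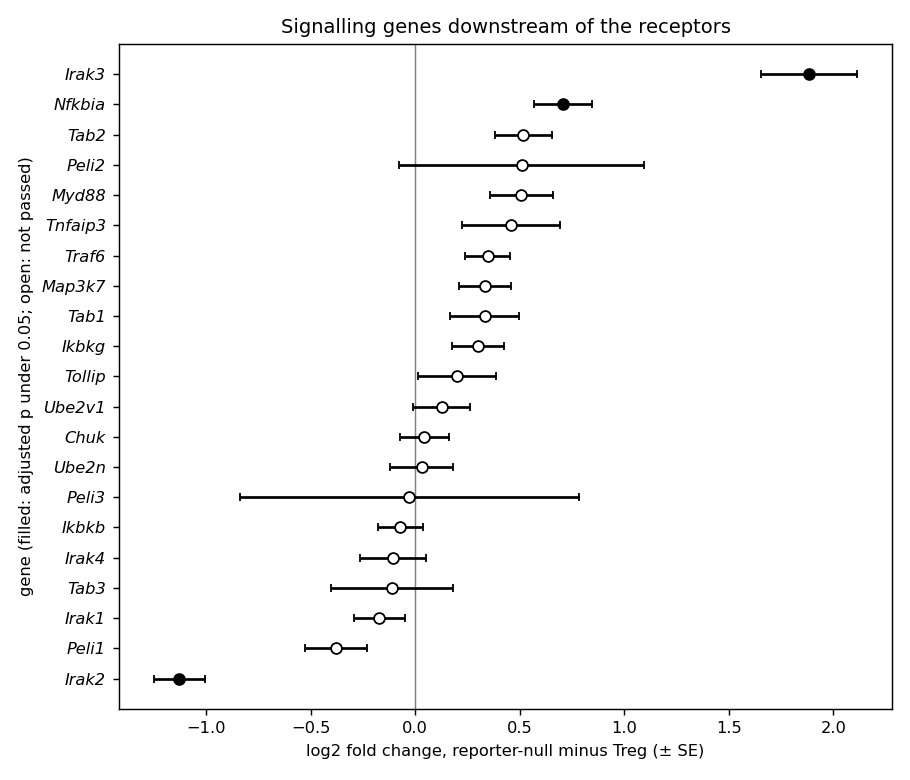
Log2 fold change, reporter-null minus Treg, with SE (horizontal axis) of the 21 tested genes of the MyD88 pathway (vertical axis, ordered by fold change); filled symbols have an adjusted p under 0.05. Irak3 and Nfkbia lie to the right of 0 and Irak2 to the left, and the other 18 are open.

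Genes that are known to accompany each receptor in T helper subsets were read beside it. These 3 lists were written with earlier results of these data known. Over all genes tested 4.07% were higher and 4.72% lower. Of 10 genes that accompany IL-1R1 in type 17 cells, 7 were higher and 0 lower, among them Tmem176b (2.03, adjusted p = 0.000626), Tmem176a (2.09, adjusted p = 0.000991) and the cytokine Il17f (7.51, adjusted p = 0.0022). The calls of Il23r and Ccr6 were lost without Treg replicate 1, Treg replicate 2 or reporter-null replicate 1, at adjusted p of 0.204, 0.127 and 0.0641 for Il23r and 0.176, 0.142 and 0.122 for Ccr6. Of 9 that accompany the IL-18 receptor in Th1 cells, 3 were higher and 2 lower. The higher were the chemokine receptor Cxcr6 (2.39, adjusted p = 0.000485), the IL-12 receptor chain Il12rb2 (2.202, adjusted p = 0.00374) and the cytokine Ifng (1.40, adjusted p = 0.0116). The lower were the chemokine receptor Cxcr3 (-3.64, adjusted p = 0.00313) and the chemokine Ccl5 (-3.58, adjusted p = 0.0165). Without Treg replicate 2 the adjusted p was 0.0509 for Il12rb2 and 0.0827 for Ccl5, and for Ccl5 leaving out Treg replicate 1 gave 0.105 and reporter-null replicate 1 0.0642.

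Of 10 genes that accompany ST2 in Treg and Th2 cells, 0 were higher and 2 lower, against 4.07% and 4.72% of all genes tested. Those lower were the inhibitory receptor Tigit (-1.32, adjusted p = 0.00308) and the chemokine receptor Ccr8 (-1.78, adjusted p = 0.0191). The call of Ccr8 was lost when any library but reporter-null replicate 2 was left out, at adjusted p of 0.0654 and 0.114 for Treg replicates 1 and 2, and 0.0578 and 0.0599 for reporter-null replicates 1 and 3. The counts of 0 in the type 17 and ST2 lists were also 0 at an unadjusted p under 0.05 in edgeR, in DESeq2 and in limma-voom. Counts from the 3 lists rest on the same libraries and fit as the receptors.

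**Figure D5:**
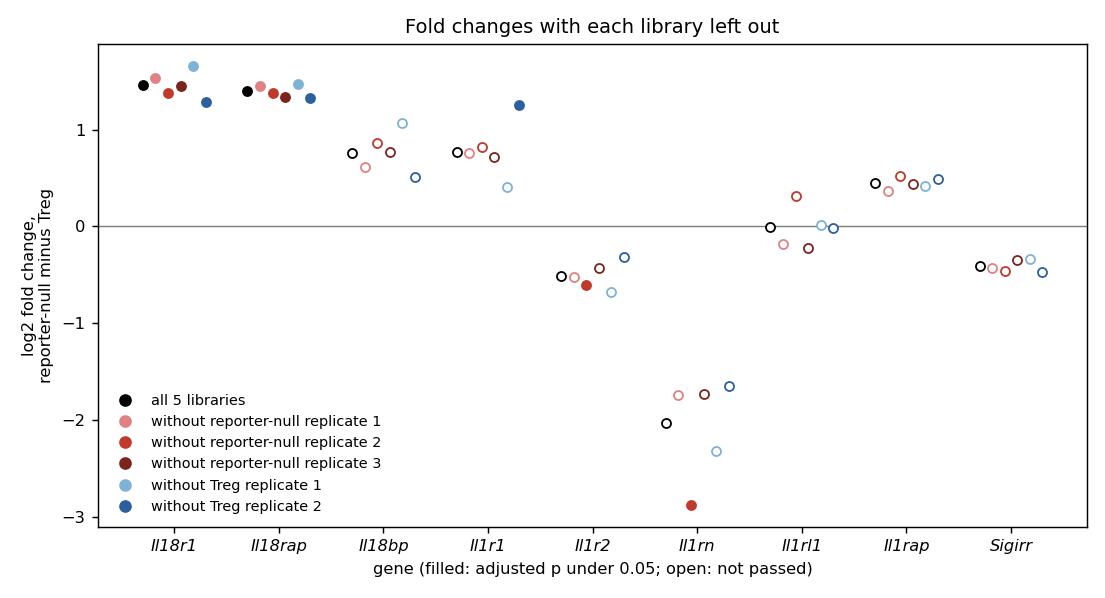
Log2 fold change, reporter-null minus Treg (vertical axis), of the 9 genes with all 5 libraries and with each library left out in turn; filled symbols have an adjusted p under 0.05. Il18r1 and Il18rap stay filled throughout, Il1rl1 lies on both sides of 0, Il1rn and Il1r2 are filled without reporter-null replicate 2, and Il1r1 is filled without Treg replicate 2.

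Which libraries entered the fit set how many of the 9 genes passed. Without reporter-null replicate 2, 4 of the 9 were called, against 14.98% of the genes tested in that fit, with Il1rn and Il1r2 lower and Il18r1 and Il18rap higher. Without Treg replicate 2, 3 of the 9 were called, against 2.70% of all. It was 2 of the 9 without Treg replicate 1, against 2.27% of all, without reporter-null replicate 1, against 3.32%, and without reporter-null replicate 3, against 8.09%. With Treg replicate 1 and reporter-null replicate 2 both left out it was 4 of the 9, against 15.2%.

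DESeq2 on all 5 libraries called 6 of the 9, against 16.4% of all genes, which added Il1r1 (adjusted p = 0.0389) as higher and Il1r2 (0.0308), Il1rn (0.0181) and Sigirr (0.0144) as lower. The limma-voom fit called 3 of the 9, against 9.16% of all, with Il1rn (adjusted p = 0.0345) as the added gene. None of these fits called Il1rl1, Il1rap or Il18bp.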

How the data were processed

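Gene counts from RNA-seq of 3 reporter-null and 2 Treg libraries were used, grouped and numbered by the sample titles. Per the labels' protocols, poly(A) RNA went through SMART-Seq v4 amplification and KAPA Hyper Prep library preparation to Illumina HiSeq sequencing. The authors deposited counts as whole numbers for each symbol, not normalised, as their values show. Of tools, the submitters' processing notes list DESeq. No aligner, genome build, annotation or strand setting is given in the sources used here. The reads carry no molecular identifiers, so counts are not counts of molecules. The 4 rows named NA held at most 0.00492% of a library's counts and were left out. No replicate pair agreed within sampling noise (chi-square of 21.3 to 91.2 per degree of freedom).

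Genes that passed filterByExpr (minimum count 10, minimum total 15) were scaled with TMM and tested in R 4.3.3 with the robust quasi-likelihood F test of edgeR 4.0.16, with Benjamini-Hochberg adjustment over all tested genes and a threshold of 0.05. The SE is the size of the log2 fold change divided by the square root of F. Log2 ratios within a library used a prior count of 2 and an exact permutation test. The steps were tested on simulated data. As alternatives, DESeq2 1.42.0, limma-voom (limma 3.58.1), RLE and upper quartile scaling, other filters, no robust option, thinned counts, replicate blocks and fits with libraries left out were run. The 9 genes and all lists were chosen with earlier results of these data known. Named genes were the 9, up to 4 called genes per list, counts of 5 or fewer and the 2 nearest patterns of each called gene of the 9. Il1rapl1, Il1rapl2 and further genes that did not pass, such as Gata3 and Klrg1, were named after their values were seen. 1 gene that this rule names is not reported here.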

Additional observations from a re-analysis of the deposited data

How the results depend on the processing

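Il18r1 and Il18rap kept their direction under all 16 alternatives and their call in 15. Of 144 values of the 9 genes under the alternatives, 127 kept direction and side of the threshold. The changed direction was that of Il1rl1, whose log2 fold change of -0.00353 became 0.011 with no filter on low counts and 0.35 with Treg replicate 1 and reporter-null replicate 2 both left out. With a single library left out it ran from -0.22 (reporter-null replicate 3) to 0.32 (reporter-null replicate 2), and was 0.016 with Treg replicate 1 left out. The number of called genes among the 9 was 2, against 6 with DESeq2, 3 with limma-voom, 2 to 4 with a single library left out and 4 with both of those libraries left out. Over all genes, 1245 were called, against 2323 with DESeq2, 2152 with both of those libraries left out and 341 to 2035 with a single library left out. Of 70 tested genes on the pathway lists 17 were called, 27 with DESeq2 and 11 to 27 with a single library left out. The shares over all genes tested were 8.79% in edgeR and 16.4% with DESeq2. Without reporter-null replicate 2, where 27 pathway genes were called, the share was 14.98%. Of the 17 calls, 7 came from the type 17 list. As all lists were chosen with earlier results of these data known, the pathway counts are descriptive only. In fits without a Treg library the lone Treg library is assumed to vary like the others. All ratios kept their direction with a prior count of 0.5. The cause of these shifts was not tested.

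The titles and the descriptions number the libraries differently, and no label says that a number marks a shared animal or day. With the title numbers as a replicate block, 24 genes of all, 0 of the 9 and 1 of the pathway genes were called, with adjusted p of 0.105 for Il18r1 and 0.0694 for Il18rap. Deviations from the group means in libraries with the same title number correlated at -0.51 and -0.60. With the description numbers as the block, 1399 genes of all, 3 of the 9 (Il1r1 added, adjusted p = 0.0247) and 20 pathway genes were called, the call of Ccr6 was lost (0.57, adjusted p = 0.0697), and the correlations were 0.60 and 0.48. With 2 Treg libraries the deviations of one are the reverse of those of the other. The -0.60 and the 0.60 are therefore the same value with its sign turned. Treg replicate 1 and reporter-null replicate 2, which share a description number, also had the highest epithelial sums of their groups. The correlations, taken across genes, cannot show a shared animal or day, and 2 pairs do not settle a pairing. Il18bp, Il1rn, Il18 and Il1b rest on few counts, which limits their precision.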

Other observations

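The remaining relatives of the IL-1 receptor family also differed between libraries. Il1rapl1, which encodes a brain-enriched relative of the accessory chain, stood at 67.3, 32.4 and 75.6 CPM in reporter-null replicates 1, 2 and 3, and at 36.7 and 42.9 CPM in Treg replicates 1 and 2. As for Il1rl1, reporter-null replicate 2 lay below both Treg libraries and the other reporter-null libraries above them. The log2 fold change of 0.55 did not pass in edgeR (SE 0.382, adjusted p = 0.485), but did without that library (0.84, adjusted p = 0.00375), and was 0.32 without reporter-null replicate 3 (adjusted p = 0.684). Il1rapl2 was listed at 0.671 to 2.05 CPM in reporter-null libraries and at 2.60 and 1.48 CPM in Treg libraries, and did not pass (adjusted p = 0.608).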
